A study of Mus musculus with 6 samples.

Results

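The 10 genes examined here were selected as genes with exons on the strand opposite another gene's exons, namely Nek6, Tbc1d8, Fam69a, Htr2b, Tlcd1, Ankrd61, Smim27, Ccdc84, Fam57b and Csf1r. They are 10 of 53801 genes in the count tables of 6 mouse melanomas, and were chosen by their read counts beside those of the gene across from them, so their levels and ratios are given as descriptions without a test. The gene opposite each was the protein-coding gene with the most exon bases overlapping it on the other strand, which gave Psmb7, Rpl31, Rpl5, Psmd1, Rpl23a, Eif2ak1, Ndufb6, Rps25, Aldoa and Hmgxb3 in the same order. Most of these opposite genes are housekeeping genes, and the 10 genes had been listed as lying across from abundantly expressed ones. In these counts 9 of the 10 opposite genes had fewer reads than the listed gene in every tumour, so the reads as assigned do not show them as the abundant gene of the pair. Since the strand of the reads is not known, neither gene's true level can be read from this.

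Pieces of tumour were the source of RNA, from tumours grown under the skin of wild type C57BL/6 mice after injection of B16-F10 cells, a mouse melanoma line. For SEVO tumours, the cells were in a closed chamber while it was flushed for 30 min with 2% sevoflurane, a volatile anaesthetic. The cells stayed in it for 2 h more and were injected afterwards, whereas CTRL tumours grew from cells without this priming. There were 3 CTRL and 3 SEVO tumours, and the animals of the study were male and 10 to 12 weeks old. The labels give the tissue as melanoma and the cell type as monocytes, although RNA was taken from whole pieces of tumour. Since no source states that the tumours of a group came from separate cultures of the injected cells, p-values measure the spread between these samples only.

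A gene on one strand of DNA can share its sequence with a gene on the other, most often where the 3′ ends of neighbours run into each other. The RNAs of such a pair are complementary over the shared stretch, and a sequencing library that keeps no record of strand cannot assign a read from that stretch to either gene. In a library that does record strand, the assignment depends on reading the record in the right sense. Genes for ribosomal proteins, proteasome subunits and glycolytic enzymes are active in nearly all dividing cells, whereas receptors such as Htr2b and Csf1r are restricted to particular cell types. The strand setting of the counting is not given in the sources used here, and a count per gene does not show on which strand, or where along the gene, its reads lay.

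The depth on genes was 723431 to 1348676 reads a tumour, 2.06% to 4.61% of the uniquely aligned reads. Reads that HTSeq left out as ambiguous numbered 3838 to 6114 per tumour. Those it tallied as lying on no feature numbered 27930688 in CTRL tumour 1 to 41026677 in SEVO tumour 1, and why so many did was not tested. All levels and ratios below rest on the small remainder. The predicted genes Gm10800 and Gm10801 took up 49.0% of the reads on genes in CTRL tumour 1 and 35.5% in CTRL tumour 3, against 1.31% in CTRL tumour 2 and 7.97% to 18.7% in SEVO. Of the 10 markers of melanocytes and melanoma, led by Dct, Tyrp1 and Pmel of the pigment pathway, 582 to 1773 reads were counted per tumour. The 14 macrophage markers together had 18 to 105 reads. The ribosomal protein gene Rpl31 had only 1 to 9 reads per tumour, so low counts here do not show that a cell type was absent. Whether monocytes were present, as the label gives, was not tested.

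The overlaps were of several kinds. In 7 pairs the genes met tail to tail, at their 3′ ends, and in 1 pair, Fam57b and Aldoa, they met head to head, with an exon at the start of Fam57b inside the body of Aldoa. Htr2b and Ankrd61 lay wholly within the span of Psmd1 and of Eif2ak1. The shared exon sequence was longest for Fam69a with Rpl5, at 953 bases or 33.0% of the exon bases of Fam69a, followed by Csf1r with Hmgxb3 at 873 bases (15.1%) and Tlcd1 with Rpl23a at 506 bases (10.1%). It was shortest for Fam57b with Aldoa, at 25 of 3935 exon bases. The exons of Tbc1d8 shared 420 bases with Rpl31 and those of Nek6 shared 405 bases with Psmb7, while the remaining pairs shared 172 to 257 bases. In all, 61.3% of the exon bases of Nek6 lay within the span of Psmb7, mostly across from its introns. Htr2b overlapped an exon found in 1 of 9 annotated transcripts of Psmd1, and Fam57b reached Aldoa with an exon of 1 of its 7 transcripts.

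**Figure D1:**
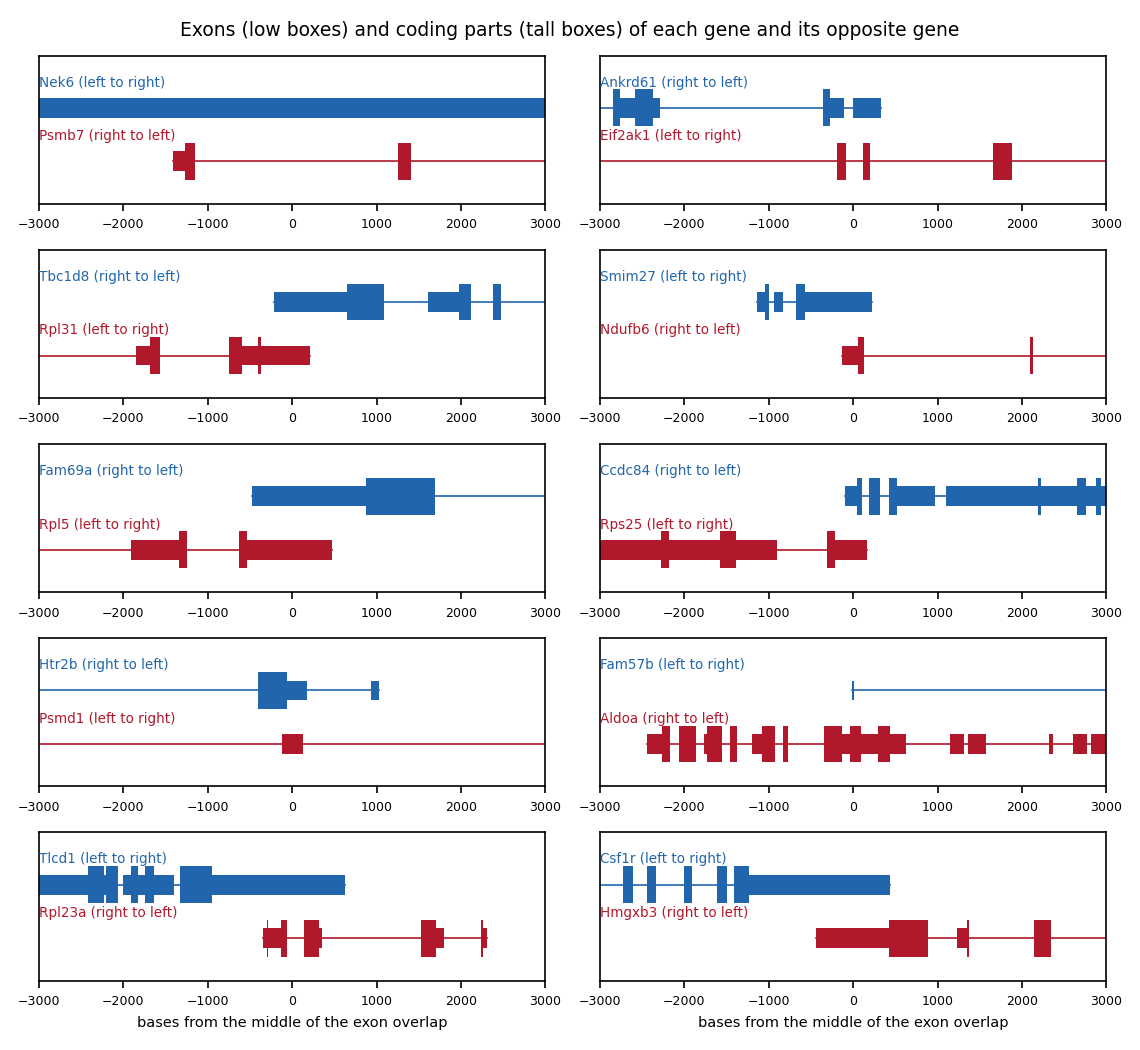
Merged exons of the 10 genes (blue) and of the gene opposite each (red), drawn to scale against distance in bases from the middle of their exon overlap; low boxes are exons, tall boxes are coding parts, thin lines are introns, and the direction of reading is given beside each name. The pairs Tbc1d8 with Rpl31 and Fam69a with Rpl5 share only their non-coding ends, and the window around Nek6 lies entirely in 1 exon of Nek6 that crosses exons and intronic sequence of Psmb7.

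Short stretches of the overlaps are shown for 7 pairs where the end, the start or the body of a coding sequence lies in the shared bases. Within any shared exon bases, coding or not, only the strand of a read could tell the genes of a pair apart. Each stretch is given 5′ to 3′ as it is read in each gene, from the transcripts of GENCODE M21 on GRCm38, with coding bases of the named gene in capitals, the stop codon included.
Nek6, plus strand, chr2:38588162-38588191: cacccacagcaccattcacgaagtatccat
Psmb7, minus strand, the same bases: ATGGATACTTCGTGAatggtgctgtgggtg
Tlcd1, plus strand, chr11:78180968-78180997: ccatctggactcagtttagatgatcccaat
Rpl23a, minus strand, the same bases: ATTGGGATCATCTAAactgagtccagatgg
Smim27, plus strand, chr4:40270764-40270793: gtttttaaggactcttcaatgatgttgatc
Ndufb6, minus strand, the same bases: GATCAACATCATTGAagagtccttaaaaac
Ccdc84, minus strand, chr9:44410289-44410318: AAAGGGAAAAGCTGAaggttcccaggcgca
Rps25, plus strand, the same bases: tgcgcctgggaaccttcagcttttcccttt
Htr2b, minus strand, chr1:86110868-86110897: gtcaccaaaaggcgaATGGCTTCATCTTAT
Psmd1, plus strand, the same bases: ataagatgaagccattcgccttttggtgac
Ankrd61, minus strand, chr5:143897165-143897194: atcagggccatgaagaaaaatatttctagg
Eif2ak1, plus strand, the same bases: CCTAGAAATATTTTTCTTCATGGCCCTGAT
Fam57b, plus strand, chr7:126797668-126797692: tgcccttgcccggagccacaatgcg
Aldoa, minus strand, the same bases: CGCATTGTGGCTCCGGGCAAGGGCA

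In the first 3 pairs the capitals end at the stop codon of the housekeeping gene (Psmb7, Rpl23a and Ndufb6), and the listed gene is non-coding there. In the pair of Ccdc84 and Rps25 the coding end belongs to Ccdc84, and in the pair of Htr2b and Psmd1 the coding start belongs to Htr2b. Ankrd61 and Fam57b lie across the coding sequence of Eif2ak1 and Aldoa without coding bases of their own in the stretch shown. The overlap of Csf1r with Hmgxb3, which is not shown, also holds 10 coding bases of Hmgxb3.

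Nek6 and Tbc1d8, a kinase and a regulator of GTPases, stood far above their opposite genes (gene positions are on GRCm38 throughout). Nek6 (chr2:38511643-38594606, plus strand), a kinase of the NIMA family that acts in mitosis, had 597, 1794 and 806 reads in CTRL tumours 1, 2 and 3, and 1600, 1641 and 1115 reads in SEVO tumours 1, 2 and 3. Psmb7, a catalytic subunit of the proteasome, had 19, 18 and 17 reads in CTRL and 7, 17 and 15 in SEVO, in the same order of tumours. Nek6 was lowest in CTRL tumour 1 and highest in CTRL tumour 2, so the groups overlapped, and over the 6 tumours it had 81.2 times the reads of Psmb7. Tbc1d8 (chr1:39371492-39478755, minus strand), a protein with the TBC domain of Rab GTPase-activating proteins, had 289, 590 and 383 reads in CTRL and 677, 641 and 401 in SEVO. Rpl31, a protein of the large ribosomal subunit, had 4, 9 and 4 reads in CTRL and 3, 1 and 8 in SEVO. The Tbc1d8 reads of the groups overlapped as well, and their total of 2981 stood against 29 for Rpl31.

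The genes of the secretory pathway and of lipid membranes covered a wide range. Fam57b (chr7:126797668-126830219, plus strand), a TLC domain protein linked to ceramide synthesis, had the most reads of the 10, with 702, 1336 and 1075 in CTRL and 1664, 1756 and 1825 in SEVO. Its raw reads were higher in every SEVO tumour than in every CTRL tumour, as was so for 2 of the 10 genes and for 7.92% of all tested genes. Aldoa, the glycolytic enzyme aldolase A, had 119, 123 and 120 reads in CTRL and 63, 89 and 245 in SEVO, and was thus both lowest and highest in SEVO. The annotation holds 2 genes named Aldoa, and the one that does not lie opposite Fam57b had 15 reads in all. Tlcd1 (chr11:78176711-78181909, plus strand), a TLC domain protein of the plasma membrane, had 84, 188 and 120 reads in CTRL and 187, 183 and 133 in SEVO. Opposite it, the ribosomal protein gene Rpl23a had 2 to 6 reads per tumour, 23 in all. The small nucleolar RNA genes Snord42a and Snord4a, which lie in the same stretch, had 17 and 6 reads in all. Fam69a (chr5:107908053-107987085, minus strand), a kinase-like protein of the endoplasmic reticulum, had 123, 484 and 270 reads in CTRL and 397, 513 and 228 in SEVO. Rpl5, a ribosomal protein that also binds 5S ribosomal RNA, had 5, 14 and 16 reads in CTRL and 18, 25 and 12 in SEVO. Both genes of this pair were lowest in CTRL tumour 1 and highest in SEVO tumour 2.

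The receptors showed the same order. Htr2b (chr1:86099026-86111970, minus strand), a serotonin receptor that signals through Gq, had 100, 160 and 123 reads in CTRL and 242, 155 and 127 in SEVO. Psmd1, a non-catalytic proteasome subunit, had 29, 12 and 26 reads in CTRL and 8, 6 and 18 in SEVO. The pair thus differed least in CTRL tumour 1, where Htr2b had 3.45 times the reads of Psmd1, and most in SEVO tumour 1, at 30.2 times. Csf1r (chr18:61100598-61132149, plus strand), the receptor for the growth factors CSF1 and IL-34 on macrophages, had 88, 209 and 165 reads in CTRL and 257, 242 and 176 in SEVO. Hmgxb3, a protein with an HMG box, had 13, 4 and 8 reads in CTRL and 4, 5 and 10 in SEVO. Csf1r was lowest and Hmgxb3 highest in CTRL tumour 1, and their ratio ran from 6.77 there to 64.2 in SEVO tumour 1.

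The small and less studied proteins included the exceptions. Smim27 (chr4:40269579-40270940, plus strand), which encodes a small membrane protein, had 188, 652 and 261 reads in CTRL and 483, 569 and 448 in SEVO. Ndufb6, a subunit of respiratory complex I, had 4 to 6 reads in every tumour, and Topors, a ubiquitin and SUMO ligase that overlaps the other end of Smim27 by 113 bases, had 9 to 19. Ccdc84 (chr9:44410159-44418569, minus strand), a coiled-coil protein linked to the minor spliceosome, had 62, 115 and 96 reads in CTRL and 135, 180 and 126 in SEVO. Rps25, of the small ribosomal subunit, had 34, 47 and 46 reads in CTRL and 52, 46 and 73 in SEVO. The raw reads of Ccdc84 were the other case in which every SEVO tumour was above every CTRL tumour, but on the scaled CPM used further on its groups overlapped. Its excess over the opposite gene was the smallest of the 9, between 1.73 and 3.91 times within a tumour. Ankrd61 (chr5:143890741-143897685, minus strand), a protein with ankyrin repeats, had 78, 171 and 109 reads in CTRL and 191, 176 and 128 in SEVO. Eif2ak1, the haem-regulated kinase that phosphorylates the initiation factor eIF2, had 194, 443 and 233 reads in CTRL and 406, 454 and 287 in SEVO. Ankrd61 was the only 1 of the 10 with fewer reads than its opposite gene, at 0.386 to 0.470 times in each tumour.

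**Figure D2:**
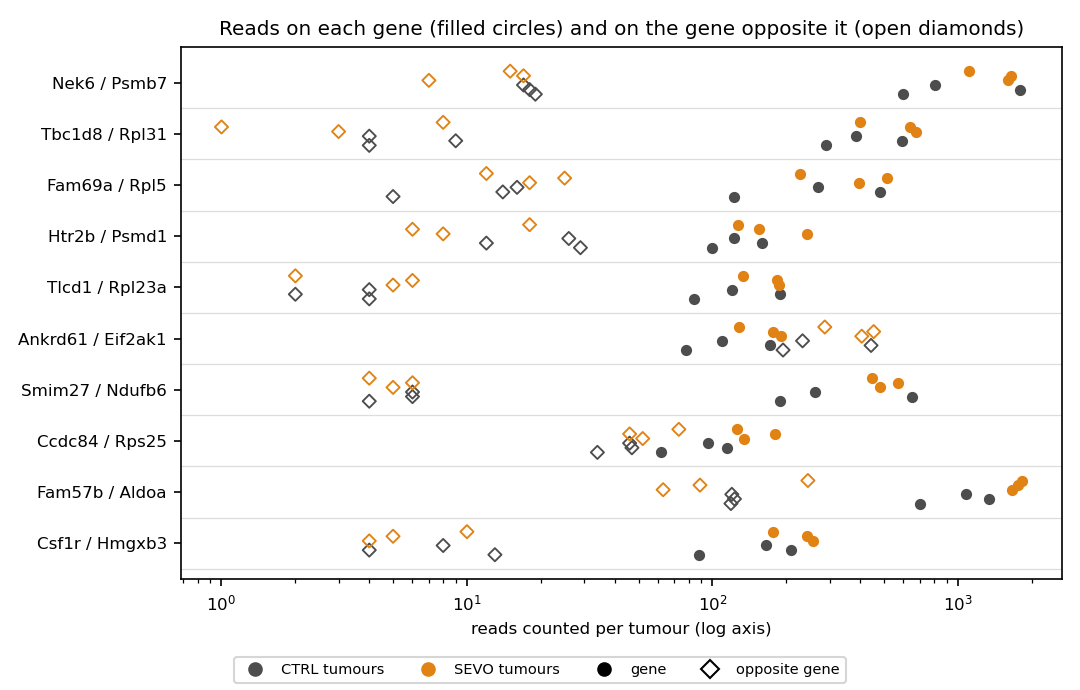
Reads counted per tumour (log axis) on each of the 10 genes (filled circles) and on its opposite gene (open diamonds), with CTRL tumours in grey and SEVO tumours in orange, 3 points per group. For 9 pairs every circle lies to the right of every diamond of the same tumour, and for Ankrd61 with Eif2ak1 the order is the other way round.

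Reads per kb of merged exon were compared because the genes of a pair differ in length. On this scale Ankrd61 and Eif2ak1 were level, with a ratio of 0.939 to 1.14 and Ankrd61 the higher in 3 of 6 tumours. The other 9 genes remained above their opposite gene in all 6 tumours, with median ratios per kb from 1.47 for Ccdc84 to 64.9 for Csf1r. The level per kb, as the median over 6 tumours, ran from 29.0 reads for Ccdc84, 31.5 for Tlcd1 and 33.3 for Csf1r to 381 for Fam57b and 405 for Smim27. The ranges over tumours of neighbours in this order overlapped, as for Ankrd61 at 33.5 to 81.9 and Htr2b at 46.9 to 114, except those of Nek6 at 55.7 to 167 and Fam57b at 178 to 464. For the opposite genes the same medians ran from 0.598 for Hmgxb3 to 61.1 for Eif2ak1. The ribosomal protein genes lay at 2.41 for Rpl31, 3.83 for Rpl5, 4.72 for Rpl23a and 17.3 for Rps25, each below the one of the 10 genes lying across from it. Rps25 and Eif2ak1 also have a second gene across from them, Trappc4 (462 shared bases, 61 reads in all) and Aimp2 (487 shared bases, 85 reads), with fewer reads than the 298 of Rps25 and the 2017 of Eif2ak1.

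Pairs with unequal reads, whichever gene was the higher, were common over the genome. In 1287 pairs of protein-coding genes with opposite exons and at least 60 reads between them, the median absolute log2 ratio of reads over the 6 tumours was 1.96, and 327 pairs (25.4%) differed by at least 10-fold. By totals, 7 of the 10 pairs examined here did so, which follows from how they were chosen. Tbc1d8 with Rpl31 exceeded 97.4% of the pairs, Smim27 with Ndufb6 exceeded 96.1% and Nek6 with Psmb7 exceeded 96.0%. Ccdc84 with Rps25 and Ankrd61 with Eif2ak1 were ordinary in this respect, exceeding 34.6% and 34.3%. Genes with opposite exons made up 23.6% of 21967 protein-coding genes, but 84.8% of the 610 protein-coding genes with at least 600 reads over the 6 tumours, a limit chosen after the values were seen. Ordered by reads among protein-coding genes, Fam57b was the 22nd and Nek6 the 26th, while Rpl31 was the 9793rd and Rpl23a the 11211th.

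Whether the apparent level fits a melanoma was looked at with relatives of 8 of the genes, all but Ankrd61 and Smim27. The 10 genes were chosen by their read counts, and the strand of the relatives' reads is not known either. The comparisons with relatives and markers are thus descriptions and do not decide that question. The 10 other NEK kinases together had 41 to 167 reads per tumour, against 597 to 1794 for Nek6 alone. Nek10, Nek8 and Nek9, the relatives with the most reads, had 8 to 31, 9 to 21 and 2 to 22 reads. Per kb, Nek6 had 13.9 to 97.2 times the level of Nek8 in a tumour. Of the close relatives of Tbc1d8, Tbc1d9b had 3 to 26 reads and Tbc1d9 0 to 13. In the FAM69 family, Fam69b had 30 to 76 reads, although none of its exons lies opposite another gene, and Fam69a had 3.37 to 6.28 times its level per kb. Fam69c had 0 to 9 reads.

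Among the 11 other TLC domain genes, Fam57a stood close to Fam57b with 378 to 1122 reads, and 2875 of its exon bases also lie opposite another gene. Glod4, the gene with the largest exon overlap across from Fam57a, had 37 reads in all. Fam57b had a median of 3.21 times the level of Fam57a per kb, while Tlcd1 had 0.220 to 0.293 times that level. Cers2, a ceramide synthase, had 42 to 86 reads with 219 of its exon bases opposite another gene. The largest overlap was with 6330562C20Rik, which had 15 reads in all. Cers4, with 1100 opposite exon bases, had 4 to 49 reads, and Cers5, with none, had 16 to 25. Vmn2r-ps89, the gene with the largest exon overlap across from Cers4, had 32 reads in all. In the minor spliceosome list, Zrsr1, a U2AF-like protein with 412 opposite exon bases, had 86 to 198 reads, and per kb Ccdc84 lay at 0.604 to 1.49 times its level. Commd1, the gene with the largest exon overlap across from Zrsr1, had 28 reads in all. Zrsr2, the gene of this list with the next most reads, had 5 to 18 reads and no opposite exons, and Zmat5, with 338 opposite exon bases, had 0 to 15. Cabp7, the gene with the largest exon overlap across from Zmat5, had 587 reads in all.

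The receptor genes were set against related genes and against marker lists of cell types. The 13 other serotonin receptors had 2 to 77 reads per tumour in sum and 156 in all, each with fewer than 60 over the 6 tumours, and Htr2b exceeded their sum in 6 of 6 tumours. Htr5a had 0 to 15 and Htr3b 0 to 8 reads, and each of the 13 was at 0 in at least 1 tumour. Neuronal markers were low as well, with 8 to 71 reads per tumour over 6 genes, of which Map2 (1 to 20) and Tubb3 (1 to 8) were among those with the most.

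Csf1r alone had 1137 reads over the 6 tumours, against 270 for the 14 macrophage markers together. It exceeded their sum in 5 of 6 tumours, and CTRL tumour 1, with 88 reads of Csf1r against 105, was the exception. In CTRL tumour 2 Csf1r had 209 reads and the whole marker list 18. Cd68, a lysosomal protein of macrophages, had 7 to 17 reads, Ptprc, the pan-leucocyte antigen CD45, had 2 to 26, and Mrc1, the mannose receptor, had 0 to 23. C1qb was at 0 in 4 of 6 tumours and had 1 read in each of the others, and 11 of the 14 markers were at 0 in at least 1 tumour. None of these markers has exons opposite another gene. In the CSF1 receptor list, the 8 other genes had 17 to 110 reads in sum, with Csf1, a ligand, at 3 to 16 and Kit, a related receptor kinase, at 2 to 19. Spi1, the transcription factor PU.1 of myeloid cells, had 1 to 5 reads. The summed macrophage markers were 18 to 105 in CTRL and 22 to 41 in SEVO tumours. In bulk tissue fewer cells of a type and less RNA per cell cannot be told apart, and at such low counts neither was tested. By flow cytometry, which measures cells and not RNA, the paper found no difference in leucocytes or tumour-associated macrophages between the primed and control groups. CTRL tumour 1, where the macrophage markers were highest, was the tumour with the fewest reads of Csf1r. That tumour also had the most reads on genes, 1348676. The sums of neuronal markers (71) and of T and NK cell markers (66) were highest there too, while those of melanocyte and erythroid markers were not.

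Melanoma genes were set beside the 10 genes. Pmel, which forms the fibrils of pigment granules and has 139 exon bases opposite Dgka, a gene with 1593 reads in all, had 134 to 302 reads, and Tyrp1 and Dct, enzymes of melanin synthesis, had 115 to 361 and 206 to 619. Neither of these enzymes has opposite exons. The median levels per kb of Pmel, Tyrp1 and Dct, the 3 markers with the most reads, were 87.3, 78.3 and 63.7 reads, against a median of 13.5 over the 10 melanocyte markers, and Nek6 (127), Tbc1d8 (94.6), Fam69a (115), Smim27 and Fam57b exceeded all 3. Htr2b at 66.2 and Ankrd61 at 64.1 lay at the level of Dct. Thus 7 of the 10 genes had a median level per kb above that of Dct. Markers of T and NK cells had 6 to 66 reads in sum, led by Cd4 with 4 to 23. Of the erythroid markers, Alas2, the haem synthesis enzyme of red cells with 372 exon bases opposite another gene, had 84 to 164 reads. Apex2, the gene with the largest exon overlap across from Alas2, had 6103 reads in all. Hba-a1 and Hbb-bs, globin genes with no opposite exons, had 0 to 4 and 16 to 82. Per kb, the medians were 45.6 reads for Alas2, 59.2 for Hbb-bs and 1.85 for Hba-a1. On which strand, or where along the exons, the reads of the 10 genes and of the melanocyte markers lay was not tested. The counts by themselves thus give no level for the 10 genes in melanoma, and the markers share this limit.

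Across the tumours the 10 genes shared a low point. Each of them was lowest in CTRL tumour 1, whether in raw reads, in CPM (reads relative to a library size adjusted by TMM) or per 1000000 uniquely aligned reads. The highest raw count fell in SEVO tumour 1 for 4 genes, in CTRL tumour 2 for 3, in SEVO tumour 2 for 2 and in SEVO tumour 3 for 1. In sum they had 2311, 5699 and 3408 reads in CTRL and 5833, 6056 and 4707 in SEVO tumours. Per 1000000 uniquely aligned reads these sums were 78.9, 171 and 114 in CTRL and 139, 156 and 142 in SEVO, so the CTRL tumours lay both lowest and highest. The 10 opposite genes did not share this order, with 4 of them lowest in CTRL tumour 1 and 3 highest there. Of these 4, Ndufb6 was equally low in SEVO tumour 3. The low point was not particular to the 10 genes. Among the relatives and markers, raw reads of Fam57a, Fam69b and Alas2 were lowest there too, and those of Tyrp1 and Dct were not. CTRL tumours 1 and 3, where the 10 genes had the smallest sums, also gave the most of their reads to Gm10800 and Gm10801. With those genes left out of the table, the log2 fold changes between SEVO and CTRL described next ran from 0.23 to 0.63. That range compares the groups and does not describe the level in CTRL tumour 1. The cause of the low point was not tested.

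**Figure D3:**
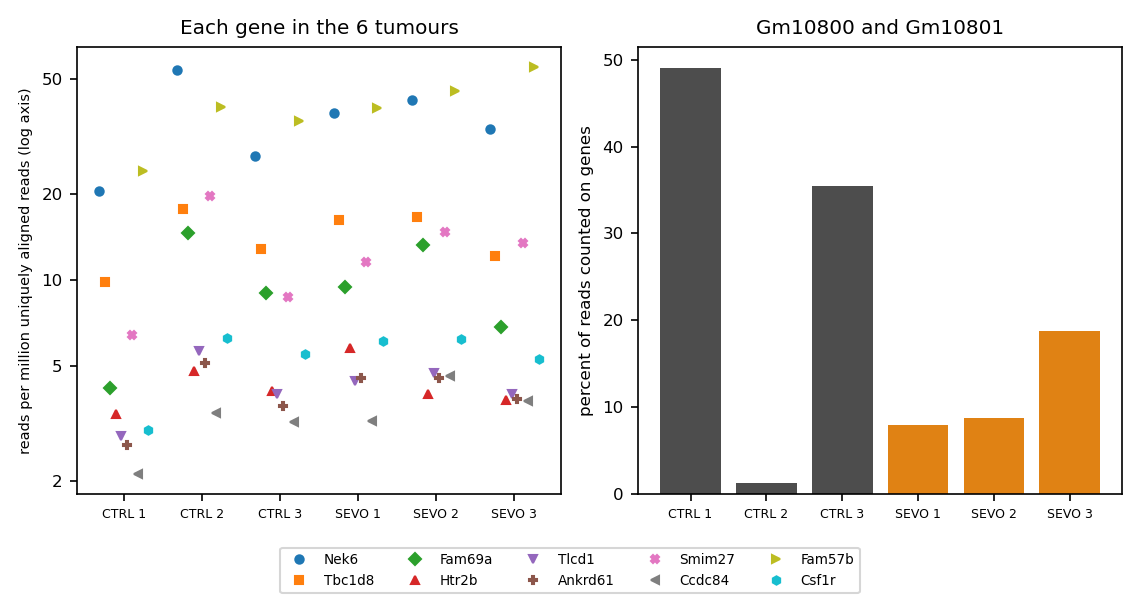
Left, reads per 1000000 uniquely aligned reads (log axis) of each of the 10 genes in the 6 tumours; right, percent of counted reads on Gm10800 and Gm10801 in each tumour (CTRL grey, SEVO orange). Every gene is lowest in CTRL tumour 1, where the pair on the right reaches 49.0%.

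Sevoflurane priming was compared with no priming in an edgeR quasi-likelihood fit over 7561 genes. All 10 genes had a higher mean in SEVO, with log2 fold changes from 0.23 for Tlcd1 to 0.62 for Fam57b and a median of 0.32, and none passed the test. At an adjusted p under 0.05 edgeR called 0 of the 10 genes and 0% of all genes, and DESeq2 also called 0. At an unadjusted p under 0.05 edgeR called 0 of the 10, against 4.36% of all genes (330 genes), and DESeq2 called 0 of the 10 among its 265 genes. At an unadjusted p under 0.02 with a fold of at least 1.5, 0 of the 10 were called, while 0.106% of all genes were called higher and 0.939% lower in SEVO. Fam57b had 1254 ± 412 CPM in CTRL and 1929 ± 55.0 in SEVO (mean ± SD, n = 3 each; log2 fold change 0.62, standard error 0.43, edgeR adjusted p = 0.741). Its CPM did not overlap between the groups, as was so for 1 of the 10 genes and, in this direction, for 4.17% of all tested genes (8.56% in either direction), and the two-sided exact permutation test gave p = 0.1, the smallest that 3 against 3 tumours can give.

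Ccdc84 had 110 ± 34.5 CPM in CTRL and 162 ± 28.4 in SEVO (log2 fold change 0.56, standard error 0.35, edgeR adjusted p = 0.741). The difference for Csf1r was a log2 fold change of 0.42 (standard error 0.39), from 186 ± 77.7 CPM to 249 ± 52.6, with an edgeR adjusted p of 0.765. For the other 7 genes the log2 fold changes of 0.23 to 0.34 were smaller than their standard errors of 0.37 to 0.50. The spread in CTRL was wide, as for Nek6 with 1300 ± 829 CPM against 1605 ± 340 in SEVO.

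Of the opposite genes, 6 passed the filter on low counts, and their log2 fold changes were positive for 3 and negative for 3. Rpl31, Rpl23a, Ndufb6 and Hmgxb3 were too low to be tested in this fit. For Psmb7 the value was -0.60 (standard error 0.52, edgeR adjusted p = 0.752), and its CPM was lower in every SEVO tumour than in every CTRL tumour, as for 4.39% of all tested genes. The log2 fold change was -1.17 for Psmd1 (standard error 0.57, edgeR adjusted p = 0.741) and 0.33 for Htr2b, which lies opposite it. Eif2ak1 and Ankrd61 had similar values, 0.26 and 0.34. Of the other genes of the family and marker lists, edgeR called 0 in every list. The 4 tested relatives of Nek6 had a median log2 fold change of -0.95, and the 9 tested melanocyte markers had -0.38.

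Over all tested genes the median log2 fold change was -0.02, with 48.9% of values above 0. It was 0.15 for the 3848 tested genes that have exons opposite another gene (61.6% above 0) and -0.31 for the 3709 that have none (35.7% above 0). The values of the 10 genes had the sign of the former median. Without CTRL tumour 2 their log2 fold changes rose to between 0.71 and 1.20, and Nek6 and Smim27 passed the unadjusted p under 0.02 with 1.5-fold, as did 4.78% of 8961 genes in that direction. The adjusted p from edgeR was then 0.0871 to 0.224 for the 10 genes, and 0.346% of all genes were below 0.05. Without CTRL tumour 1 the log2 fold changes fell to between -0.13 and 0.41, and 7 of 10 were positive.

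**Figure D4:**
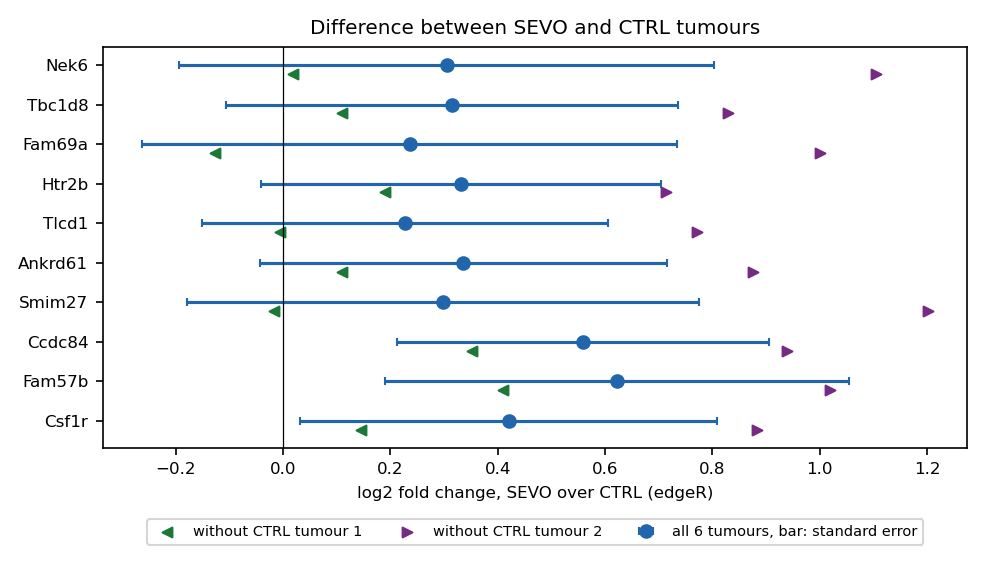
Log2 fold change of SEVO over CTRL from edgeR for each of the 10 genes with all 6 tumours (circles, bars ± 1 standard error), without CTRL tumour 1 (green) and without CTRL tumour 2 (purple). All circles lie between 0.23 and 0.62; leaving out CTRL tumour 1 moves every gene to the left and leaving out CTRL tumour 2 moves every gene to the right.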

How the data were processed

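RNA-seq of 3 CTRL and 3 SEVO tumours was analysed, grouped by the labels. The authors removed ribosomal RNA reads with SortMeRNA, trimmed with Trimmomatic 0.36, aligned with STAR 2.6.0c to GRCm38 and counted with HTSeq 0.9.1 on GENCODE M17 (versions per the submitters' processing notes). They deposited these raw counts for each gene, not normalized, with tallies of uncounted reads. The strand setting of HTSeq is not given in the sources used here.

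Of 53801 gene identifiers, 53706 matched GENCODE M21, also on GRCm38, which supplied names, exons and sequences. Overlap was at least 1 shared base of merged exons on opposite strands. Ratios within a tumour were taken from raw reads, with 0.5 reads added before logs. Levels between genes were compared as reads per kb of merged exon. SEVO was compared with CTRL with edgeR 4.0.16 in R 4.3.3 (TMM, filterByExpr, quasi-likelihood, Benjamini-Hochberg over all tested genes). DESeq2 1.42.0 was an alternative. The fit was tested on simulated data. Counts covered 723431 to 1348676 reads per tumour, and ratios to genes with few reads are imprecise.

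The genes and lists were chosen with earlier results of these data known. Genes named are the 10, the opposite protein-coding gene with most overlap, any other with more reads, and up to 3 genes with the most reads per list, which comprised 7 families and 5 cell types (macrophages, melanocytes, neurons, erythroid cells, T and NK cells). Hba-a1, C1qb, Spi1, Nek9, Cers2, Cers4, Cers5, Zmat5, Dgka, Trappc4, Aimp2, Snord42a and Snord4a were named after their values were seen. So were Vmn2r-ps89, Glod4, 6330562C20Rik, Commd1, Cabp7 and Apex2. Alternatives changed the normalization, filter, test, dispersion, library size, replicate block or length scale, or left out each tumour.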

Additional observations from a re-analysis of the deposited data

How the results depend on the processing

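The count of genes above their opposite gene in all 6 tumours was 9 under every alternative run (length scale, the opposite gene with the most reads, and each tumour left out). Per kb the log2 ratio of Ankrd61 to Eif2ak1 turned from -1.24 to 0.047, because Eif2ak1 has more exon bases, and 8 other log2 ratios of 90 recomputed moved beyond their spread without a change of sign. No gene passed an adjusted p under 0.05 in edgeR, and that count was 1 with a replicate block and 0 to 31 when a tumour was left out (31 without CTRL tumour 2). The count at an unadjusted p under 0.02 and 1.5-fold was 79 (8 higher, 71 lower). It became 266 (100 higher) without a filter on low counts, 49 (26 higher) in DESeq2, 129 with the replicate block, 52 with all uniquely aligned reads as the library size, and 14 in DESeq2 without CTRL tumour 1, the last 2 alternatives being chosen after the data were seen. It ran from 13 to 1449 when a tumour was left out, with 28 without CTRL tumour 1, 1449 without CTRL tumour 2, 32 without CTRL tumour 3, and 13, 14 and 479 without SEVO tumours 1, 2 and 3. With library size only, 24 were higher and 36 lower. That scaling moved the median of all genes to 0.22, and the 10 genes to between 0.33 and 0.79. The scaling by uniquely aligned reads moved the median to -0.23, and the 10 genes to between 0.07 and 0.49. Of 160 recomputed fold changes of the 10 genes, 4 changed sign, none of them past the threshold before or after. Without CTRL tumour 1 they were Fam69a at -0.13, Smim27 at -0.016 and Tlcd1 at -0.0061, and in DESeq2 without that tumour Fam69a at -0.041. The ranges with a tumour left out were -0.13 to 1.00 for Fam69a, -0.016 to 1.20 for Smim27 and -0.0061 to 0.77 for Tlcd1. With the replicate block the 10 log2 fold changes were 0.29 to 0.67. No source says that the numbers pair tumours. The deviations of same-numbered tumours from their group means correlated at -0.39, 0.32 and 0.11, and 2 of 6 tumours correlated best with their own number. For the other settings, the cause of each change was not tested. Ratios to opposite genes with under 10 reads per tumour, such as Rpl31, Rpl23a and Ndufb6, are limited by those counts.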
